A study of Homo sapiens with 12 samples.

Results

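The 10 genes described here belong to the JAK2–STAT5 pathway of K562 cells: the kinase JAK2, the transcription factors STAT5A and STAT5B, and 7 genes known as STAT5 targets (PIM1, BCL6, ID1, CISH, SOCS1, SOCS2 and SOCS3). They are 10 of 20015 protein-coding genes. Their members are all regions in the deposited lists of H2A.Z and acetylated H2A.Z (H2A.Zac) that touch the gene body or the 10 kb to each side of it, by GENCODE on hg38. There were 93 such regions of 158028, of which 25 were H2A.Z regions and 68 were H2A.Zac regions. Regions were assigned to the genes by position alone.

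ChIP-seq of both marks was carried out in K562, a human chronic myeloid leukemia line. In all cells the endogenous EP400, the scaffold subunit of the TIP60 complex, was fused to the FKBP12 F36V degradation tag and was degraded with 500 nM dTAGV-1 for 24 h. The cells carried an exogenous EP400 in the AAVS1 locus. It was either WT EP400 or ΔTRRAP EP400, from which the SANT and HD domains that hold the TRRAP subunit had been deleted, and each line was 1 clone. There were 12 libraries: in each line, input chromatin and the ChIPs of H2A.Z and H2A.Zac had 2 biological replicates. The comparison asks where the marks lie when EP400 cannot hold TRRAP.

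The authors' lists come from 1 comparison of the merged replicates of a mark. They name regions lost in ΔTRRAP (higher in WT), gained in ΔTRRAP, and unchanged. Each region carries a score, the authors' log10 likelihood ratio between the lines, which is at least 3 in the lists of lost and gained regions and lower in the unchanged lists. The score grows with depth as well as with the size of the change and is not a fold change. Its relation to the width of a region was not examined. The lists hold no value per replicate, so no spread and no test across lines can be given, and library depth is unknown here. The words lost, gained and unchanged are the authors' calls throughout. A region called unchanged is one whose score stayed under the cutoff, not one shown to be equal in both lines.

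In the JAK–STAT pathway, a cytokine bound to its receptor activates the JAK kinase attached to it, and JAK2 then phosphorylates STAT5A and STAT5B. Phosphorylated STAT5 dimers enter the nucleus and bind sites of the form TTCNNNGAA near their target genes. CISH and the SOCS proteins are made in response and shut the receptor and the kinase off, which closes a feedback loop. In K562 the BCR-ABL kinase keeps STAT5 phosphorylated without a cytokine. H2A.Z is a histone variant found at many promoters and enhancers, and its acetylated form is associated with active ones.

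The STAT5 site is shown here because the best known targets carry it at their promoters. Capital letters mark TTCNNNGAA, which reads the same on both strands. Sequences are from hg38, 5′ to 3′ on the strand of the gene. In the RefSeq promoters of GRCh38.p14, which reach from 250 bases before to 50 bases after a gene's start, TTCNNNGAA was found in 2689 of 35116 promoters, or 7.66%. Promoters were given for 9 of the 10 genes, all but SOCS2, in 16 entries, and 2 of these entries held the site. They belonged to CISH and BCL6, with 4 sites each, and only 7 of all promoters (0.0199%) held 4 or more. The windows given for SOCS3 do not span its canonical TSS, so these counts say nothing of the sequence there. Its sites in hg38 are given with SOCS3 below. The sequences of CISH, an inhibitor of cytokine receptors, and of SOCS2, an inhibitor of growth hormone signaling, were these:
CISH, sites at -129 and -112 bp from the TSS, up to the TSS (chr3:50611775-50611907, minus strand): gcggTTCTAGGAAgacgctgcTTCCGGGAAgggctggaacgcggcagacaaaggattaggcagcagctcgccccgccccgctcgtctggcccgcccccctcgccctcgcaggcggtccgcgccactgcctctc
CISH, sites at -241 and -230 bp (chr3:50611991-50612020, minus strand): ccgttTTCCTGGAAagTTCTTGGAAatctg
SOCS2, sites at -1779 and -1768 bp (chr12:93570891-93570920, plus strand): gccgaTTCCTGGAAagTTCCTGGAAagccg
The first CISH stretch lies in no annotated exon. The pair farther from the CISH TSS lies in an exon of an alternative transcript of the neighbor MAPKAPK3, and the SOCS2 pair lies in an exon of the antisense gene SOCS2-AS1. Both close pairs were spaced by 11 bp from start to start, and 19 of their 20 bases were identical. CISH had the only RefSeq promoter of 35116 with sites at this spacing. SOCS2 had no promoter entry, so its sequence was not part of that search. The spacing and the number of 4 sites equal those seen at these genes, so these counts are descriptive.

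BCL6, a transcriptional repressor, had a group of sites around its TSS and another in intron 1. The first group, at -28, -5, 10 and 36 bp, is in exon sequence of BCL6 transcripts and of an overlapping gene model. The second lies inside an H2A.Zac region gained in ΔTRRAP, and in an exon of an alternative BCL6 transcript. It is shown because 3 sites in the central 300 bp of a region are rare. Of 94586 H2A.Zac regions, 39 (0.0412%) held 3 or more, a number equal to that seen at BCL6, so this count is descriptive.
BCL6, site at -28 bp (chr3:187745478-187745506, minus strand): gaagctcaaaTTCCGAGAAttgagctctg
BCL6, sites at -5 and 10 bp (chr3:187745447-187745476, minus strand): tgaTTCTTAGAActggggTTCTTAGAAgtg
BCL6, site at 36 bp (chr3:187745414-187745442, minus strand): tgcaagaagtTTCTAGGAAaggccggaca
BCL6 intron 1, site at 7550 bp (chr3:187737900-187737928, minus strand): ggccggcagcTTCCTGGAAagttacttct
BCL6 intron 1, site at 7597 bp (chr3:187737853-187737881, minus strand): gcaaagtgtgTTCTGTGAAatccgcagag
BCL6 intron 1, site at 7631 bp (chr3:187737819-187737847, minus strand): attgactacgTTCCGGGAAtgagagggct
A match to these letters describes the sequence only. Binding of STAT5 was not measured in these libraries.

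Taken over the 10 genes, H2A.Zac changes went in both directions. Of the 68 H2A.Zac regions, 19 were gained (27.9%; Wilson 95% confidence interval, 18.7 to 39.6%), against 26.3% of all H2A.Zac regions of the genome. Another 12 were lost (17.6%, 10.4 to 28.4%), against 25.9% over the genome. Both intervals hold the genome-wide value, so neither share stood apart from the background. For H2A.Z, lost regions outnumbered gained ones, as they do over the genome. Of the 25 H2A.Z regions, 2 were gained (8%, 2.22 to 25%), against 14.1% over the genome, and 7 were lost (28%, 14.3 to 47.6%), against 19.8%. Here too both intervals hold the genome-wide value. Counted in base pairs, the order did not hold, since the 2 gained H2A.Z regions are wide and made up 50.6% of the changed bases (3561 of 7044 bp). These intervals cover counting error only, and neighboring regions of a gene are not independent. Classes can also overlap, as 40 of the 68 H2A.Zac regions (49.3% over the genome) and 6 of the 25 H2A.Z regions (27.3%) shared bases with a region of another class of the same mark.

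**Figure D1:**
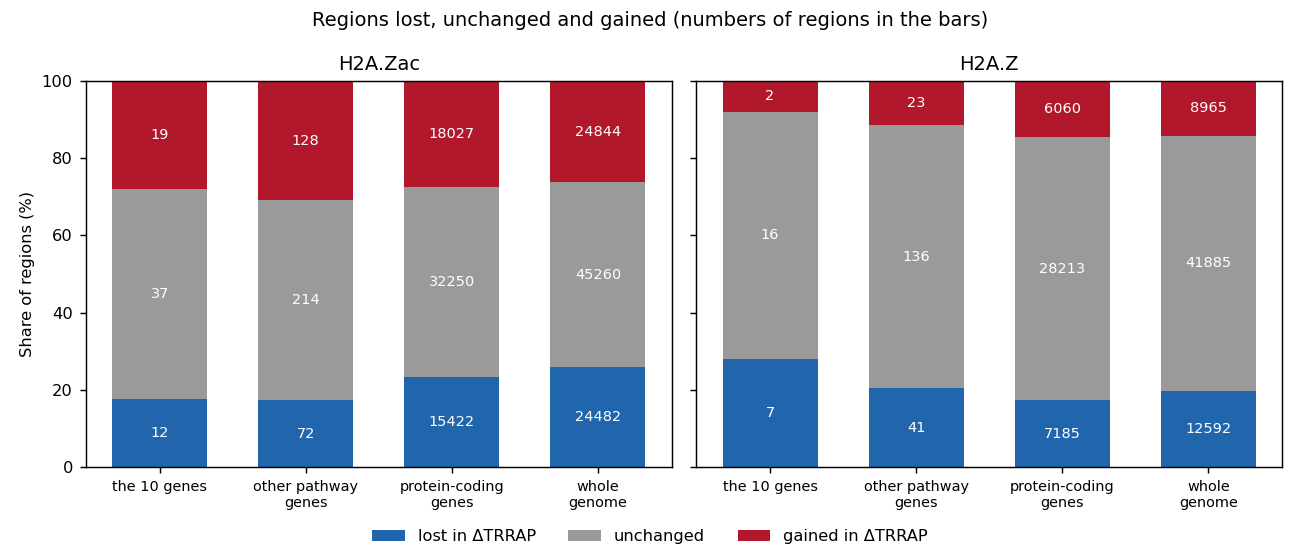
Share of H2A.Zac regions (left) and H2A.Z regions (right) that were lost, unchanged or gained in ΔTRRAP, in percent, at the 10 genes, at 55 other pathway genes, at all protein-coding genes (each with 10 kb to each side) and over the genome. Numbers in the bars are regions, with 19 gained and 12 lost H2A.Zac regions but 2 gained and 7 lost H2A.Z regions at the 10 genes.

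Among changed H2A.Zac regions at the 10 genes, 61.3% (43.8 to 76.3%) were gained. The share was 50.4% over the genome, 53.9% at protein-coding genes with the same flanks and 64% (57.1 to 70.3%) at 55 other genes of the pathway. No comparison set of regions, here or below, was cleared of regions that also lie at the 10 genes. With flanks of 50 kb it was 45.3% (34 of 75) at the 10 genes, below the genome-wide share. Among changed H2A.Z regions it was 22.2% (6.32 to 54.7%), against 41.6% over the genome, 45.8% at protein-coding genes and 35.9% (25.3 to 48.2%) at the other pathway genes. Both gained H2A.Z regions were at the STAT5 genes, and the 7 lost ones were at SOCS1, SOCS3, BCL6 and ID1. A gained H2A.Zac region was found at 8 of the 10 genes, with CISH and ID1 as the exceptions. The share over protein-coding genes with the same flanks was 59.5%, or 70.9% of those with any H2A.Zac region, which 8 of 10 does not set apart.

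**Figure D2:**
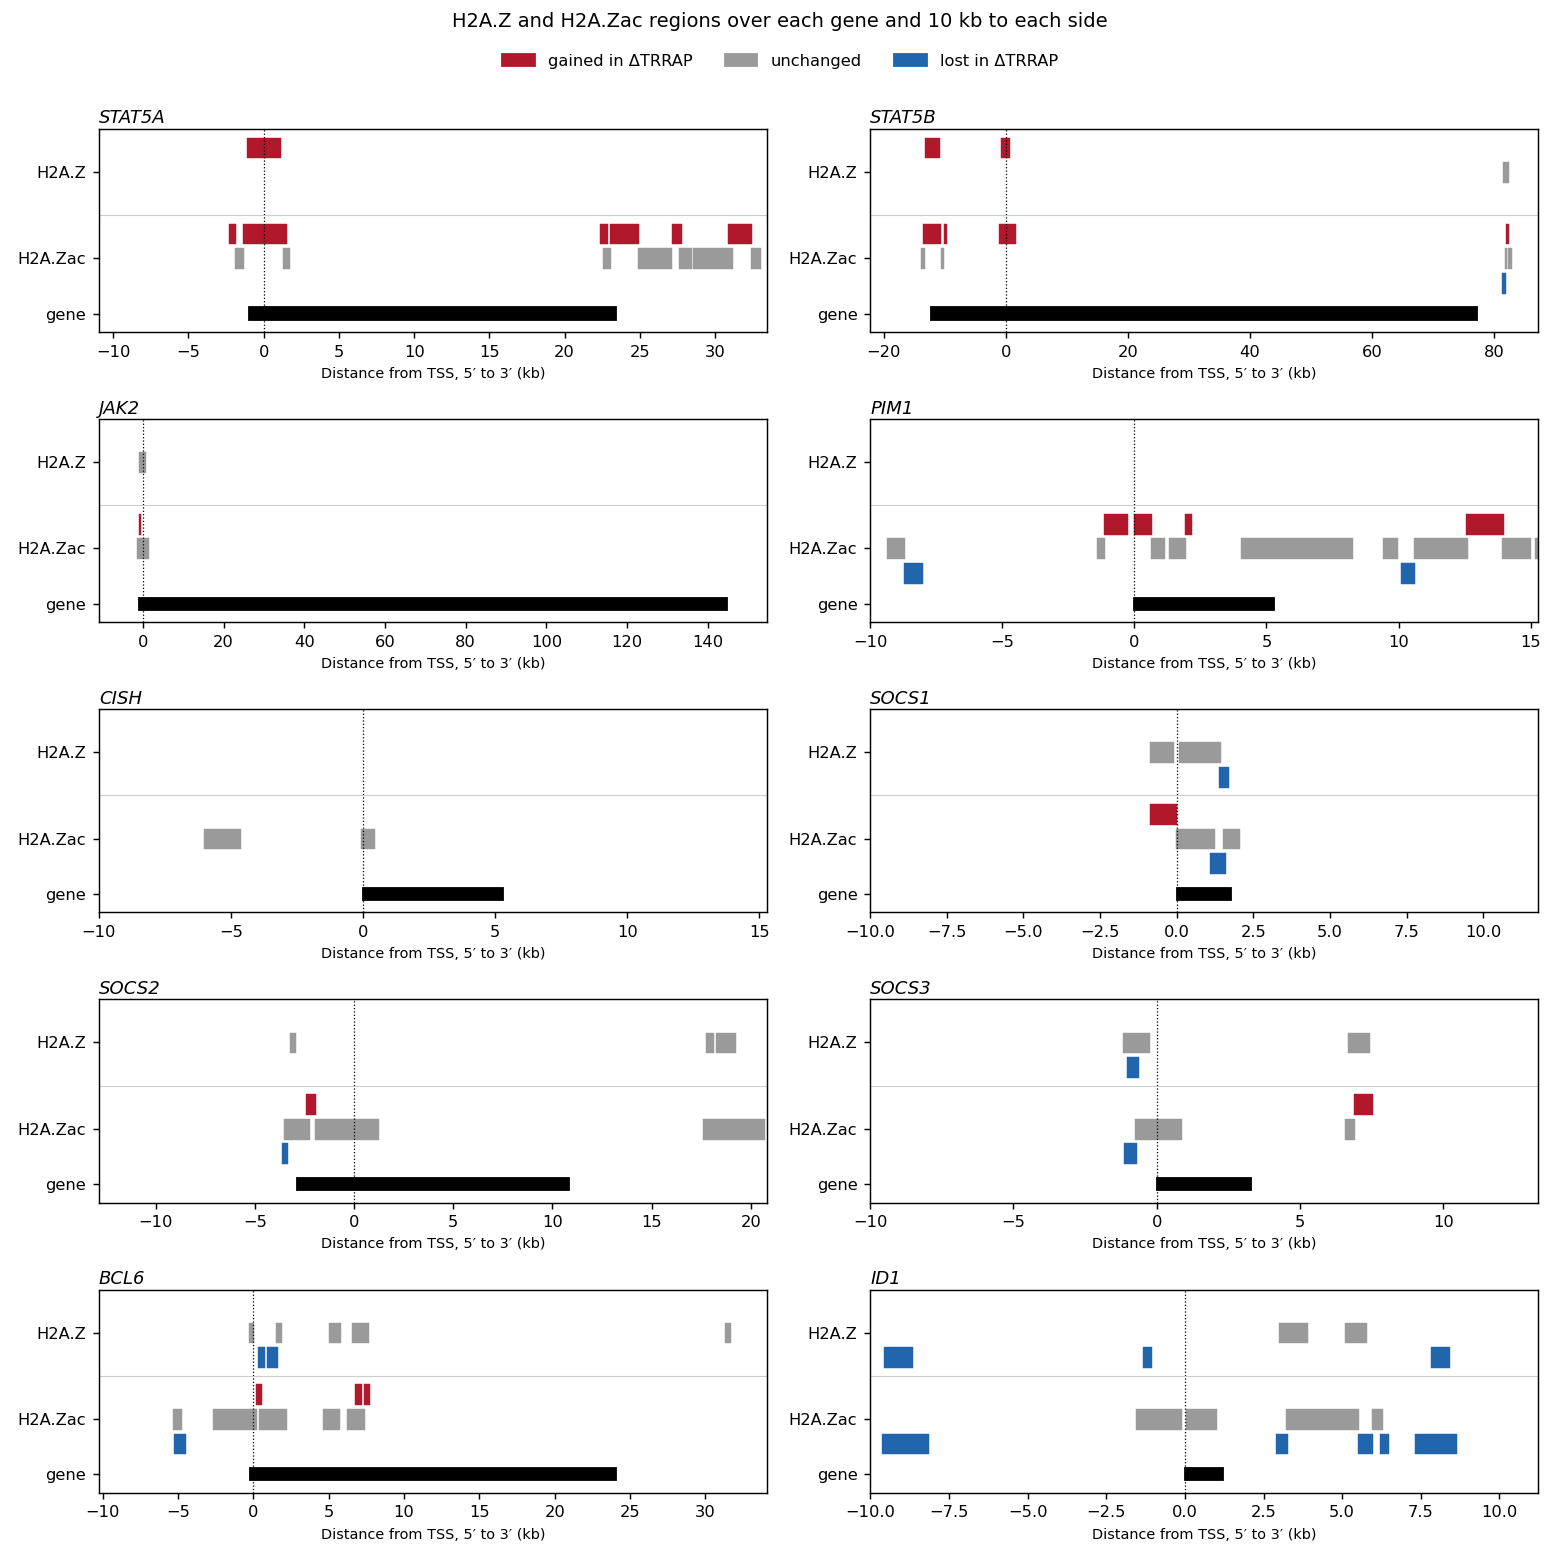
H2A.Z and H2A.Zac regions by class along each of the 10 genes and 10 kb to each side, in kb from the TSS in the direction of transcription. The black bar is the gene body and the dotted line the TSS; STAT5A has gained and unchanged regions alone, ID1 has lost and unchanged regions alone, and PIM1 and CISH have no H2A.Z region.

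Within 1 kb of a TSS of these genes, 7 of the 8 changed H2A.Zac regions were gained. A gained H2A.Zac region lay within 1 kb of the TSS of 6 of the 10 genes (STAT5A, STAT5B, JAK2, PIM1, SOCS1 and BCL6), and a lost one near that of SOCS3 alone. Gains were more common than losses near the TSS over all protein-coding genes too, where 36.7% had a gained and 16.7% a lost H2A.Zac region. All 10 genes had some H2A.Zac region near the TSS. Among the 12819 protein-coding genes of which this is true, 57.3% had a gained and 26% a lost region, so 6 gained and 1 lost of 10 is close to the background for the gains. For H2A.Z, STAT5A and STAT5B had a gained region within 1 kb of the TSS, and SOCS3 and BCL6 a lost one. The shares over all protein-coding genes were 13.9% gained and 6.54% lost, or 22.3% and 10.5% of those with any H2A.Z region there. Both marks were gained near the TSS of the STAT5 genes (11% of protein-coding genes), and both were lost near the TSS of SOCS3 (5.28%).

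JAK2 (ENSG00000096968.14), the receptor-associated kinase that phosphorylates STAT5, lies on the plus strand at chr9:4984390-5129948 and has 25 exons. It had 3 regions, all at its 5′ end. An H2A.Z region of 1486 bp over the TSS was unchanged with a score of 0.464. An H2A.Zac region of 2742 bp over the TSS was unchanged as well, with a score of 1.01. Inside the bounds of the wider region, a stretch of 299 bp from -1.06 to -0.76 kb relative to the TSS was listed as gained. Its score of 3.27 was just above the cutoff, and only 0.201% of the gained H2A.Zac regions of the genome scored as low or lower. Beyond 1.24 kb downstream of the TSS the lists held no region of either mark in the remaining gene body. By the highest gained H2A.Zac score of each gene, JAK2 thus ranked lowest among the 8 genes with a gained region.

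STAT5A and STAT5B encode near-identical transcription factors and lie head to head on chromosome 17, with TSSs 12107 bp apart. STAT5A (ENSG00000126561.18) is on the plus strand at chr17:42287547-42311943 and has 19 exons. Its single H2A.Z region, chr17:42287361-42289582 (2222 bp), spans the TSS with exons 1 and 2 and was gained with a score of 8.54. That score was at least as high as those of 84.1% of the gained H2A.Z regions of the genome. The H2A.Zac region over it, chr17:42287095-42290005 (2911 bp), was gained with a score of 13.1. The lists thus called both marks higher in ΔTRRAP over the same promoter. It holds 1 STAT5 site, 516 bp downstream of the TSS in intron sequence.
STAT5A, site at 516 bp (chr17:42289004-42289032, plus strand): atatctccccTTCCCAGAAaccgggcccg
A second group of H2A.Zac gains lay at and past the 3′ end of STAT5A. Neighbors were looked up by their TSS alone. Regions past the gene's end may thus lie in the body of another gene, such as STAT3, with its TSS at chr17:42388442. The region with the highest score, 13.3, begins in exon 19 and runs past the end of the gene (chr17:42311518-42313395). On either side of it, regions were gained with scores of 4.15, in exon 19, and 6.77, 27.17 kb downstream of the TSS. The last gained region, 30.82 kb downstream of the TSS, scored 12.9. A further gained region 1.90 kb upstream of the TSS scored 7.98. In all, 6 of the 13 H2A.Zac regions of STAT5A were gained, 7 were unchanged and 0 were lost, and they covered 32.4% of the 44.4 kb examined.

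STAT5B (ENSG00000173757.11) is on the minus strand at chr17:42199176-42288633, and the model includes transcripts that start next to STAT5A. For this reason 5 regions, 1 of H2A.Z and 4 of H2A.Zac, belong to both genes and were counted once in the totals. The H2A.Z region over the TSS of its canonical transcript, chr17:42275865-42277203 (1339 bp), was gained with a score of 5.64. The H2A.Zac region there, chr17:42274957-42277492 (2536 bp), was gained with a score of 12.8. This repeats at STAT5B the pattern of the STAT5A promoter, where both marks were called gained over the TSS. From 1.43 kb downstream of the TSS to the 3′ end of the gene no region of either mark was listed. The remaining regions lay past the 3′ end, around the TSS of the neighbor GHDC. There, a gained H2A.Zac region with a score of 5.6 and a lost one with a score of 4.54 lay on an unchanged H2A.Z region with a score of 0.558. The promoter regions of the 2 STAT5 genes are separate regions, but they share a locus and the libraries, so they are not independent observations.

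**Figure D3:**
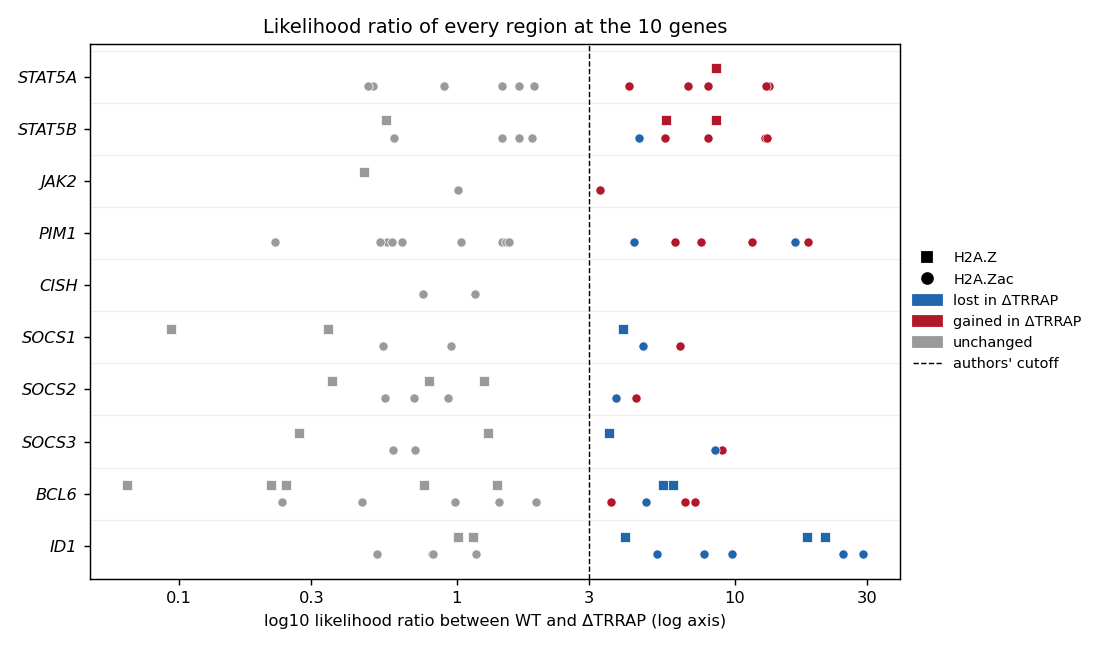
Score (log10 likelihood ratio between WT and ΔTRRAP, log axis) of every region at each of the 10 genes. Squares are H2A.Z and circles H2A.Zac regions, colors give the class and the dashed line is the authors' cutoff of 3; the highest scores are the lost regions of ID1, up to 28.9, and regions shared by STAT5A and STAT5B are drawn at both.

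PIM1 (ENSG00000137193.14), a serine/threonine kinase that promotes survival, lies on the plus strand at chr6:37170152-37175428. It had 15 H2A.Zac regions and no H2A.Z region of any class. H2A.Zac regions covered 14.21 kb of the 25.3 kb examined, or 56.2%, which was the highest share among the 10 genes. A gained region scoring 11.5 spans the TSS and exon 1 and reaches into exon 2, and another scoring 6.12 ends 0.28 kb upstream of it. The gained region in intron 4 scored 7.54. The highest score at PIM1, 18.3, belongs to a gained region 12.56 kb downstream of the TSS. Losses were found at this gene too. A lost region scoring 16.5 ended 8.03 kb upstream of the TSS, and one scoring 4.35 lay 10.11 kb downstream. The other 9 regions were unchanged. Gains thus lay at the promoter and in the gene, while both directions were found in the flanks.

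The gained PIM1 regions hold 2 STAT5 sites, 1 upstream of the TSS and 1 in the central 300 bp of the region with the highest score.
PIM1, site at -927 bp (chr6:37169215-37169243, plus strand): cacacatcccTTCCCAGAAatcaggattc
PIM1, site at 13228 bp (chr6:37183370-37183398, plus strand): gctgtgctggTTCTTGGAAaccttcacca
The absence of H2A.Z regions from a gene with this much H2A.Zac was uncommon. Of 16785 protein-coding genes with an H2A.Zac region, 804 (4.79%) had no H2A.Z region. Among the 2461 genes with at least 10 H2A.Zac regions there were 12 (0.488%). Of the 758 genes with at least 15, a number set after that of PIM1 was seen, PIM1 was the only one (0.132%). The lists give called regions and no signal level, so H2A.Z below the calling threshold was not analysed here.

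BCL6 (ENSG00000113916.18) lies on the minus strand at chr3:187721377-187745725 and has 10 exons. It encodes a repressor that STAT5 is known to repress in turn. H2A.Z was lost just downstream of its TSS. Regions in intron 1, from 0.31 to 0.72 kb and from 0.90 to 1.53 kb downstream of the TSS, were lost with scores of 5.5 and 5.98. The other 5 H2A.Z regions were unchanged, with scores from 0.0652 to 1.39. H2A.Zac did not follow this pattern. The H2A.Zac region over the TSS was unchanged with a score of 0.456, and 3 regions in intron 1 were gained. They scored 7.19, 6.61 and 3.6, and the one scoring 6.61 holds the 3 STAT5 sites printed above. The one scoring 3.6 lies wholly inside an unchanged H2A.Zac region with a score of 1.42, so all its bases carry both calls. A single H2A.Zac region, 4.53 kb upstream of the TSS, was lost, with a score of 4.8. It overlaps an unchanged H2A.Zac region with a score of 1.92.

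At BCL6 a gained H2A.Zac call and a lost H2A.Z call fell on the same bases. The gained H2A.Zac region with a score of 7.19, chr3:187744965-187745283, shares 197 bp, or 61.8% of its length, with the lost H2A.Z region with a score of 5.5. Of 24844 gained H2A.Zac regions, 8 (0.0322%) had at least 25% of their length on lost H2A.Z regions, and this was 1 of them. An unchanged H2A.Zac region with a score of 0.985 also covers 117 of the 197 shared bp, so these carry a gained and an unchanged H2A.Zac call at once. The shared bases, which lie in intron 1 of BCL6 and in an exon of the noncoding gene model ENSG00000289331, are shown since they carry this call, and they hold no TTCNNNGAA:
BCL6, shared bases (chr3:187744965-187745161, minus strand): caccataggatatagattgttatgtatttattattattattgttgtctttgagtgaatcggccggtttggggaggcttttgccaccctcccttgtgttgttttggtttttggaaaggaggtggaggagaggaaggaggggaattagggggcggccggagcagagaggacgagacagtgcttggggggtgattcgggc
The scores of both regions were moderate. The H2A.Zac score was at the 53.5 percentile of the gained list and the H2A.Z score at the 41.4 percentile of the lost list.

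ID1 (ENSG00000125968.9), an inhibitor of helix-loop-helix transcription factors, lies on the plus strand at chr20:31605283-31606515. Every change listed at ID1 was a loss. Of 5 H2A.Z regions 3 were lost and 2 unchanged, and of 9 H2A.Zac regions 5 were lost and 4 unchanged. The losses with the highest scores were away from the TSS. An H2A.Z region 8.67 kb upstream of the TSS was lost with a score of 21.1, at the 99.6 percentile of the lost H2A.Z regions of the genome. The H2A.Zac region around it was lost with a score of 28.9, the highest at the 10 genes. A pair of lost regions in the downstream flank, 7.81 kb (H2A.Z) and 7.32 kb (H2A.Zac) from the TSS, scored 18.2 and 24.5. The 3 other lost H2A.Zac regions scored 7.77, 9.78 and 5.24 and were downstream of the gene. At the TSS itself H2A.Zac was unchanged on both sides, with scores of 0.515 and 0.812, and a narrow H2A.Z region 1.08 kb upstream was lost with a score of 4.03. The upstream region lost in both marks holds 2 STAT5 sites:
ID1, sites at -9494 and -9363 bp (chr20:31595775-31595954, plus strand): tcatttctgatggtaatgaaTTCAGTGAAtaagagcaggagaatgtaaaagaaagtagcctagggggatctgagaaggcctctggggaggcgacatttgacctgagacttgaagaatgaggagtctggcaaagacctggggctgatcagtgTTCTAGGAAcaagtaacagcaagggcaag

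At the feedback inhibitors CISH, SOCS1, SOCS2 and SOCS3, 9 of 15 H2A.Zac regions (60%) were unchanged, against 47.9% over the genome, and 7 of 9 H2A.Z regions (77.8%), against 66%. Both counts are small, and neither difference from the genome was tested. CISH (ENSG00000114737.16), on the minus strand at chr3:50606489-50611774, had 2 H2A.Zac regions, both unchanged, and no H2A.Z region. The region over its TSS, chr3:50611366-50611864 (499 bp), scored 0.754, and the one over the TSS of MAPKAPK3 scored 1.16. The 4 STAT5 sites of the CISH promoter were not in a listed region. Their bases nearest to the gene lay between 14 and 143 bp beyond the upstream edge of the region over the TSS, which ends 90 bp from the TSS.

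SOCS1 (ENSG00000185338.7), which inhibits the JAK kinases directly, lies on the minus strand at chr16:11254417-11256204. It had H2A.Zac changes on both sides of its TSS. A region from -0.86 to -0.02 kb relative to the TSS was gained with a score of 6.37, while the H2A.Z region there was unchanged with a score of 0.0936. In exon 2, a lost H2A.Zac region scoring 4.66 overlapped a lost H2A.Z region scoring 3.95. The H2A.Zac region over the TSS was unchanged, with a score of 0.541. At SOCS1, then, the gain was upstream of the TSS and the losses were in the last exon.

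SOCS2 (ENSG00000120833.14) lies on the plus strand at chr12:93569814-93583487, with the TSS of its canonical transcript at 93572675. Its 3 H2A.Z regions were unchanged. The H2A.Zac region over the TSS, 3188 bp long, was unchanged with a score of 0.553 and holds 5 STAT5 sites, including the close pair printed above. A gained region scoring 4.41 and a lost region of 250 bp scoring 3.74 lay upstream, 1.99 and 3.38 kb from the TSS. Both scores were low within their lists, at the 13.4 percentile of the gained and the 2.52 percentile of the lost H2A.Zac regions.

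SOCS3 (ENSG00000184557.4), an inhibitor of JAKs and of several cytokine receptors, lies on the minus strand at chr17:78356778-78360077. It was the only one of the 10 genes with both marks lost within 1 kb of the TSS. The lost H2A.Z region, from -1.05 to -0.65 kb relative to the TSS, scored 3.54, near the cutoff. It lies wholly inside an unchanged H2A.Z region with a score of 1.29, so all its bases carry both calls. The lost H2A.Zac region, from -1.13 to -0.72 kb, scored 8.5. The H2A.Zac region over the TSS was unchanged with a score of 0.591 and holds 3 STAT5 sites, at -349, -64 and 469 bp. A gained H2A.Zac region scoring 8.98 lay 6.87 kb downstream of the TSS, on an unchanged H2A.Z region with a score of 0.27. SOCS1, SOCS2 and SOCS3 each had 1 gained and 1 lost H2A.Zac region, while CISH had neither.

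Seen over all 10 genes, many H2A.Zac regions had little or no H2A.Z under them, and 31 of 68 (45.6%) shared at least 1 bp with an H2A.Z region. Of 68, 27 (39.7%, 28.9 to 51.6%) had at least 25% of their length on an H2A.Z region, against 60.5% over the genome, 61.7% at protein-coding genes and 52.7% (47.8 to 57.4%) at the other pathway genes. PIM1 contributed 15 of the regions without one, and without PIM1 the share was 50.9%, which is close to that of the other pathway genes. In the other direction 24 of 25 H2A.Z regions (96%) lay on H2A.Zac, the exception being 31.30 kb downstream of the BCL6 TSS. The genome gave 82.8% and protein-coding genes 87%, both inside the interval of the 10 genes (80.5 to 99.3%). Of the 12 lost H2A.Zac regions, 4 lay on a lost H2A.Z region, where the genome gave 28.6%. Of the 19 gained ones, 2 lay on a gained H2A.Z region, at the promoters of STAT5A and STAT5B, where the genome gave 18.7%. Another 10 of the 19 had no H2A.Z region under them (43.1% over the genome).

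The regions of the 10 genes were also described by width and sequence. The median width of their gained H2A.Zac regions was 572 bp and of their lost ones 460 bp, against 664 and 702 bp over the genome. Unchanged H2A.Zac regions were wider at these genes than over the genome, with medians of 954 and 735 bp. Median GC content was 53.7% for H2A.Zac regions at the 10 genes, against 49.8% over the genome and 51.5% at protein-coding genes. TTCNNNGAA in the 300 bp around a region's center was found at 5 of 68 H2A.Zac regions of the 10 genes (7.35%), against 8.69% over the genome. For H2A.Z it was found at 5 of 25 (20%), against 8.53%, and 3 of the 5 were at BCL6. At 1 of these 3, which is 253 bp wide, the window reaches past the region and the site lies outside it. All 5 of these H2A.Z regions were unchanged.

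The 5 Mb around each gene were examined with the interval of the gene itself left out. Over protein-coding genes with at least 20 changed regions around them, the median share of gained regions was 35.7% for H2A.Z and 50.7% for H2A.Zac. Around ID1, gains made up 6 of 59 H2A.Z changes (10.2%, 4.74 to 20.5%) and 39 of 123 H2A.Zac changes (31.7%, 24.1 to 40.4%). The losses at ID1 thus lay in surroundings where most changes were losses. Around JAK2 the order was the opposite. There, gains made up 11 of 13 H2A.Z changes and 40 of 54 H2A.Zac changes (74.1%, 61.1 to 83.9%). Around SOCS2, which had no H2A.Z change of its own, 14 of 17 changed H2A.Z regions were gained. Both H2A.Z counts are under the minimum of 20 behind the median. In the interval of STAT5A, which reaches past its 3′ end, all 6 changed H2A.Zac regions were gained. Around that interval 127 of 282 were (45%, 39.3 to 50.9%), a difference that was not tested. The part of the surroundings in the changes at any 1 gene was not tested.

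**Figure D4:**
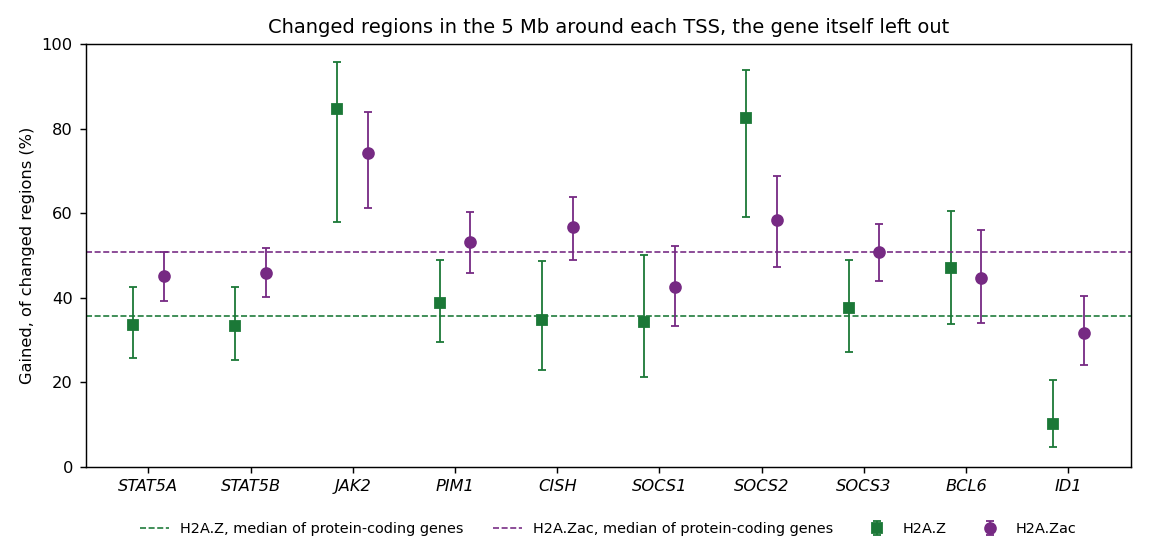
Share of gained regions among changed regions in the 5 Mb around each TSS, in percent, for H2A.Z (green squares) and H2A.Zac (purple circles), with Wilson 95% confidence intervals as bars and the medians of protein-coding genes as dashed lines. ID1 is lowest in both marks, at 10.2 and 31.7%. JAK2 and SOCS2 rest on 13 and 17 changed H2A.Z regions, fewer than the 20 required for the medians, and their intervals overlap.

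The pathway was completed with 55 other genes, grouped by role. A gained H2A.Zac region within 1 kb of the TSS, with no lost one, was found at 25 of them (45.5%), a lost one alone at 8 (14.5%), both at 3, unchanged regions alone at 8 and no region at 11. The same shares over all protein-coding genes were 32.3% gained and 12.2% lost. More of the pathway genes had any H2A.Zac region there. Among those with one, 25 of 44 (56.8%) had a gain alone, against 50.4% of protein-coding genes with one, and 18.2% a loss alone, against 19.1%. H2A.Z was gained at 8 (14.5%) and lost at 4 (7.27%), against 13.5% and 6.2%. At receptors, lost H2A.Zac regions outnumbered gained ones. Of 14 cytokine and growth factor receptors, 2 had a gained and 4 a lost H2A.Zac region, and 7 had none. Of 14 inhibitors, 8 had a gained region, 2 a lost one and 2 both. Among 16 other targets of STAT5 the numbers were 9, 2 and 1. Gains were found at 3 of the 5 other STAT genes, at 1 of 4 kinases and at both adaptors, with no losses. These counts are small, and the difference between the roles was not tested.

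**Figure D5:**
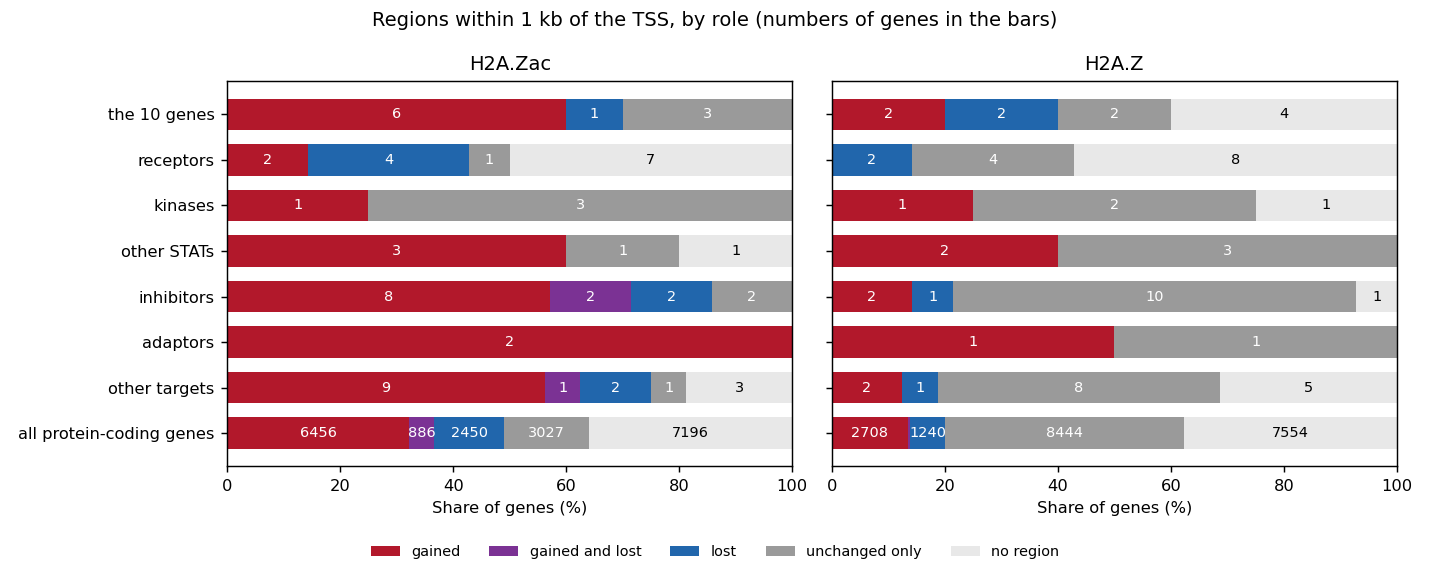
Share of genes with a gained, lost, gained and lost, only unchanged, or no H2A.Zac region (left) or H2A.Z region (right) within 1 kb of the TSS, in percent, for the 10 genes, the other pathway genes by role and all protein-coding genes. Numbers in the bars are genes, and the receptors have 4 lost and 2 gained for H2A.Zac.

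Both marks were gained near the TSS of 5 of the 55 genes (9.09%) and lost near that of 3 (5.45%), which is close to the 11% and 5.28% of protein-coding genes. SH2B3, an adaptor protein that restrains JAK2 signaling, scored 14.4 for H2A.Zac and 10.5 for H2A.Z. MCL1, which protects cells from apoptosis, scored 13 and 8.35. IREB2, a regulator of iron metabolism, scored 10.7 and 3.51. SOCS4 scored 4.36 and 4.83, and the adaptor GRB2 scored 3.74 and 4.35. The scores of MCL1 were close to the 13.1 and 8.54 of the STAT5A promoter. Both marks were lost at KIT, CSF3R and DUSP5. KIT, the receptor of stem cell factor, scored 36.6 for H2A.Zac and 7.4 for H2A.Z. CSF3R, the receptor of granulocyte colony-stimulating factor, scored 11.9 and 10.1. DUSP5, a phosphatase of ERK kinases, scored 6.36 and 6.19. For KIT the H2A.Zac score was higher than any at the 10 genes.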

How the data were processed

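H2A.Z and H2A.Zac ChIP-seq libraries of WT and ΔTRRAP K562 cells, 2 biological replicates each with 2 inputs per line, were grouped as labelled. The authors aligned reads to hg38 with Bowtie2 2.4.5, called peaks with MACS2 2.2.7.1, merged replicates, and compared the lines with bdgdiff at a cutoff of 3 after scaling to equal effective depth. A region stayed in the lists if 25% or more of it was covered by peaks reproducible between replicates (IDR threshold 0.05). Each deposited list gives coordinates and a score, the authors' log10 likelihood ratio. bdgdiff can divide 1 peak into several regions, and regions of different classes can share bases. Depth per sample is not in the lists, so single regions carry no precision estimate.

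The 6 lists were read as deposited, with 0 columns of other samples. Regions were assigned to a gene when they touched its body plus 10 kb to each side in GENCODE 44, a later release than the one in the methods of the study, and placed relative to the canonical transcript. Overlap of marks meant at least 25% of a region's length. Motifs were searched in hg38 and in RefSeq promoters, in which 9 of the 10 genes were found. Shares have Wilson 95% intervals (scipy 1.17.1). Python 3.11.15, pandas 2.3.3, numpy 2.4.6, pysam 0.24.0, matplotlib 3.10.9 and bedtools 2.31.1 were used, and the overlap code was tested on simulated data and against bedtools. No test was run, since the lists hold 1 comparison of merged replicates.

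The 10 genes and the pathway list were chosen with earlier results of these data known. All 10 are named. Of the other pathway genes, those named had both marks changed in the same direction within 1 kb of the TSS, at most 6 per direction by H2A.Zac score. Only some of the neighbors whose TSS lies in a region are named. Alternatives were flanks of 2 and 50 kb, scores of at least 5 and 10, merging within 1 kb, base pairs, regions of at least 500 bp, TSS-proximal regions, other overlaps and each gene left out. Inputs, signal tracks and gene expression were not analysed here.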

Additional observations from a re-analysis of the deposited data

How the results depend on the processing

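No paired analysis was possible because each list rests on merged replicates compared once and no result comes from a test; for the same reason no replicate could be left out. Of 86 alternatives 79 kept their value within its Wilson interval and 7 moved. The gained share of changed H2A.Zac regions (61.3%) was 77.8% with a flank of 2 kb (14 of 18) and 87.5% within 1 kb of a TSS (7 of 8). A genome-wide share under the same restrictions is not given here. Within 1 kb of the TSS, 36.7% of protein-coding genes had a gained and 16.7% a lost H2A.Zac region, so gains prevail there in general. With a flank of 50 kb the share was 45.3% (34 of 75), on the other side of the genome-wide share of 50.4%. The changed share of H2A.Zac regions (45.6%) was 32.4% with a score of at least 5, 13.2% with a score of at least 10 and 34.1% for regions of at least 500 bp. The gained share of changed H2A.Z regions (22.2%) was 40% for regions of at least 500 bp and 50.6% in base pairs, which is above the genome-wide 41.6% by region. With a score of at least 10, 8% of H2A.Z regions were changed and 0 of these 2 were gained (0%), both at ID1. Stricter cutoffs lower the changed share by construction, and the cause of the other shifts was not tested. Leaving out each gene in turn moved the gained share from 55.6% (without STAT5A) to 73.1% (without ID1) for H2A.Zac and from 12.5% (without STAT5B) to 33.3% (without ID1) for H2A.Z. Each line was 1 clone, and depth, which sets how many regions pass the cutoff, is unknown here.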

Other observations

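CACGTG, the E-box bound by MYC and related factors (palindromic, so both strands are covered at once), was also searched, because TRRAP is known as a partner of MYC. It was found in 0 of the 16 promoter entries, which leave out SOCS2, against 7.26% of all RefSeq promoters. In the central 300 bp of regions it was found in 9 of 68 H2A.Zac regions at the 10 genes (13.2%), against 5.91% over the genome, and in 4 of 25 H2A.Z regions (16%), against 5.42%. Of these 9 H2A.Zac regions 5 were at ID1. Over the whole length of a region, CACGTG was found in 4 of the 19 gained H2A.Zac regions (the STAT5A and STAT5B promoters among them), 3 of the 12 lost and 14 of the 37 unchanged ones, which are wider. In the central 300 bp the counts were 0, 3 and 6, so the order of the classes depends on the window. A site in overlapping regions was counted for each of them. The ID1 site 6222 bp from the TSS lies in a lost and an unchanged region. The STAT5A site 27606 bp from the TSS lies in a gained and an unchanged region. The regions of ID1 lie within 21.2 kb of each other, so they are not independent, and the relation between motif and class was not tested.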
